A study of Mus musculus with 16 samples.

Results

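Interferon-stimulated genes and antigen presentation genes were examined as a group of 36 genes among the 46078 Ensembl genes of a mouse liver RNA-seq count table. The 36 were chosen by name, as the table rows whose Ensembl identifier carries 1 of 36 symbols, and each symbol matched 1 row. They comprise 26 interferon targets, 5 genes of the major histocompatibility complex (MHC) class I route and 5 of the class II route. All 36 passed the filter on low counts, and 15075 genes were tested in total. The study asked how fasting and a high-fat diet act on the liver. Its animals carried no engineered allele: the strain is written C56B6/J in the labels, and the methods describe male C57BL6/J mice that were 8 weeks old when assigned to diets. Every mouse spent 16 weeks on its diet. The groups were control diet with food available ad libitum (CD fed), control diet and a 16 h fast (CD fast), high-fat diet with 60% of its calories from fat and food available ad libitum (HFD fed), and the same high-fat diet with a 16 h fast (HFD fast), each with 4 numbered liver samples.

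Interferons are secreted proteins that warn cells of viruses and other microbes. Receptor signalling through Janus kinases activates transcription factors, among them STAT2 with IRF9, which bind the interferon-stimulated response element (ISRE) or the gamma-activated site (GAS) and switch on genes that sense RNA, block virus replication or recruit lymphocytes. MHC class I molecules display fragments of proteins made inside the cell and are present on nearly all nucleated cells, hepatocytes included. MHC class II molecules display material that was taken up, and in the liver they belong mainly to dendritic cells, B cells and macrophages, among them the Kupffer cells that line the sinusoids.

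Libraries held 41364448 to 57583153 counts, and values are given as CPM, counts scaled to a common library size with TMM factors. With 3 counts taken as the limit of detection, the limit lay at 0.0536 to 0.0767 CPM, below the lowest value of every member. All 6 hepatocyte markers were detected in every library. In whole liver, fewer cells of a type and less RNA per cell cannot be told apart. Sums over 12 Kupffer cell and macrophage markers spanned, in CPM, 432 to 846 (CD fed), 306 to 475 (CD fast), 470.0 to 722 (HFD fed) and 386 to 631 (HFD fast). The library HFD fast 4 stood apart in immune cell genes, with the highest value of the 16 for Itgax (CD11c of dendritic cells and some macrophages, 8.75 CPM) and the lowest for Timd4 and Vsig4 of resident Kupffer cells (0.808 and 7.37 CPM). The other genes of the 12 went both ways in this library. Cd68 was the highest of the 16 (19.5 CPM), and Cd5l (138 CPM) and Lyz2 (104 CPM) were high in their ranges. Marco (4.5 CPM) and Clec4f (62 CPM) were low in theirs. HFD fed 4 had the next highest Itgax, at 4.41 CPM, and stood apart in the cholangiocyte gene Krt19 (10.5 CPM, against at most 0.914 in the other libraries) and the pancreas gene Ctrb1 (1.5 CPM, against at most 0.189). Of the adipose genes, Adipoq and Lep were highest in HFD fast 1 (0.976 and 0.781 CPM), and the lipid droplet gene Cidec, which hepatocytes also express, rose on fasting in both diets. The part of these differences in the results was not tested. Counts below are also given without HFD fast 4, HFD fed 4 or both where stated.

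Promoter windows from RefSeq (GRCm38.p6, 250 bases before to 50 after the annotated start) were found for 30 of the 36 members, in 35 windows. Each window was searched on both strands for GAAANNGAA, the core of the ISRE. The core occurred in 17 of 28 windows of interferon targets (60.7%), in 1 of 5 windows of class I genes and in 8.56% of all 32851 windows. The 8 stretches printed here are from members that changed in at least 1 comparison and show the cores upstream of the start, in capitals, written 5′ to 3′ in the direction of the gene with 10 bases to either side. A core on the opposite strand reads TTCNNTTTC. The stretch of Ifih1 lies at chr2:62646349-62646377 on the minus strand, Ifit1 at chr19:34640770-34640823 (plus), Ifit3 at chr19:34583364-34583445 (plus), Isg15 at chr4:156200866-156200906 (minus), Rsad2 at chr12:26456553-26456581 (minus), Bst2 at chr8:71537578-71537612 (minus), Gbp2 at chr3:142620595-142620623 (plus) and Gbp3 at chr3:142559990-142560024 (plus).
Ifih1: agaattcgcgTTCCCTTTCctgtttctca
Ifit1: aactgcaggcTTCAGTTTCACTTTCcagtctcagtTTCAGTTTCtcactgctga
Ifit3: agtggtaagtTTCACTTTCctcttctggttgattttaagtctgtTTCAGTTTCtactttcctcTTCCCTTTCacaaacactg
Isg15: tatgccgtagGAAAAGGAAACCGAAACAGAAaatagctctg
Rsad2: tggtccaactTTCATTTTCagaaaacaga
Bst2: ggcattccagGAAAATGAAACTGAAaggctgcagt
Gbp2: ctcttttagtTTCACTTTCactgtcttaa
Gbp3: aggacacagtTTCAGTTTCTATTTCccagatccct

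Ifit1, Ifit3 and Isg15 held 3 cores each, which in Isg15 overlapped in 1 run. Bst2 and Gbp3 held 2 overlapping cores each. The class I window with a core was that of B2m. The GAS motif TTCNNNGAA occurred in 7 of 28 windows of interferon targets (25.0%), against 8.30% of all windows. The motifs share the letters GAA, or TTC on the other strand, so their matches can overlap. The Y box CTGATTGG, or its reverse complement CCAATCAG, is a conserved element of class II promoters. It was present in both class II windows at hand (H2-Aa and H2-Eb1, 51 and 62 bases upstream of the start), in 3 of the 4 class I genes with a window, in 2 of 24 interferon targets (Cxcl9 and Cxcl10) and in 4.10% of all windows. Ifit2, Irf7, Irf9, Oasl1 and Oasl2 held no ISRE core in these windows, which says only that these letters are not there. A match is a description of the sequence and not evidence of binding.

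Levels differed by more than 3 orders of magnitude between members when expressed per length (CPM per kilobase of exon, mean of the 16 libraries). B2m, the light chain of class I molecules, was highest at 1315, followed by the class I heavy chains H2-K1 (375) and H2-D1 (211). Among interferon targets the highest were Bst2 (114) and Ifi27 (58.2), and among class II genes Cd74 (40.3). The RNA sensors Ddx58 (4.06) and Ifih1 (3.89) and the effectors Ifit3 (5.6), Ifit1 (3.07) and Rsad2 (2.34) were far lower. The lowest were Ifi44 (0.453) and Ciita (0.176), the activator of class II transcription, which rested on 82.4 counts per library on average.

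On fasting, 12 of the 26 interferon targets rose in HFD livers, 1 fell and 13 did not pass, while the test of the difference between the diets passed for 3 genes. In HFD livers 15 of 36 members passed an adjusted p of 0.05 on fasting, where 8.86% of all genes tested did. Of these, 14 rose (4.78% of all genes rose) and 1, Bst2, fell (4.07% of all genes fell). In CD livers 3 of 36 passed, against a background of 25.2%: Tap1 rose, and Bst2 and Cxcl9 fell. The median log2 fold change of the 26 interferon targets was 0.58 in HFD and -0.16 in CD livers, with medians of all genes of 0.0079 and -0.0092. Libraries of HFD fed and HFD fast did not overlap in 11 of the 26 interferon targets, in 3 of 5 class I and in 0 of 5 class II genes, where 16.7% of all genes did not overlap. In the same comparison the sum of 6 hepatocyte markers was 112616 to 139106 CPM in HFD fed and 73996 to 104341 CPM in HFD fast, without overlap. Most of this sum was Alb, at 85512 to 112653 CPM in HFD fed and 52371 to 83050 CPM in HFD fast. Hnf4a did not overlap between these groups either, whereas Apoa1, Ttr, Cps1 and Fabp1 overlapped. Of the 6, 1 passed (Hnf4a, -0.55, adjusted p = 0.00601). Of 5 erythrocyte markers, 1 passed, Alas2, which was lower (-0.38). Hba-a1, Hba-a2, Hbb-bs and Hbb-bt had estimates above 0 that did not pass (0.65, 0.66, 0.71 and 0.56). The part of these markers in the result was not tested. Without HFD fast 4 the HFD count was 9, without HFD fed 4 it was 19, and without both it was 13. It was also lower without HFD fed 1 (5), HFD fed 2 (9) or HFD fed 3 (6), and the CD count was 5 without CD fed 3 and 7 without both HFD libraries numbered 4. Calls over all genes on fasting in HFD moved as well, from 1335 to 1056 without HFD fast 4, 1500 without HFD fed 4 and 1029 without both. They were 505, 865 and 802 without HFD fed 1, 2 and 3. In CD they were 3797 with all libraries, 3169 without CD fed 3 and 4128 without both HFD libraries.

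**Figure D1:**
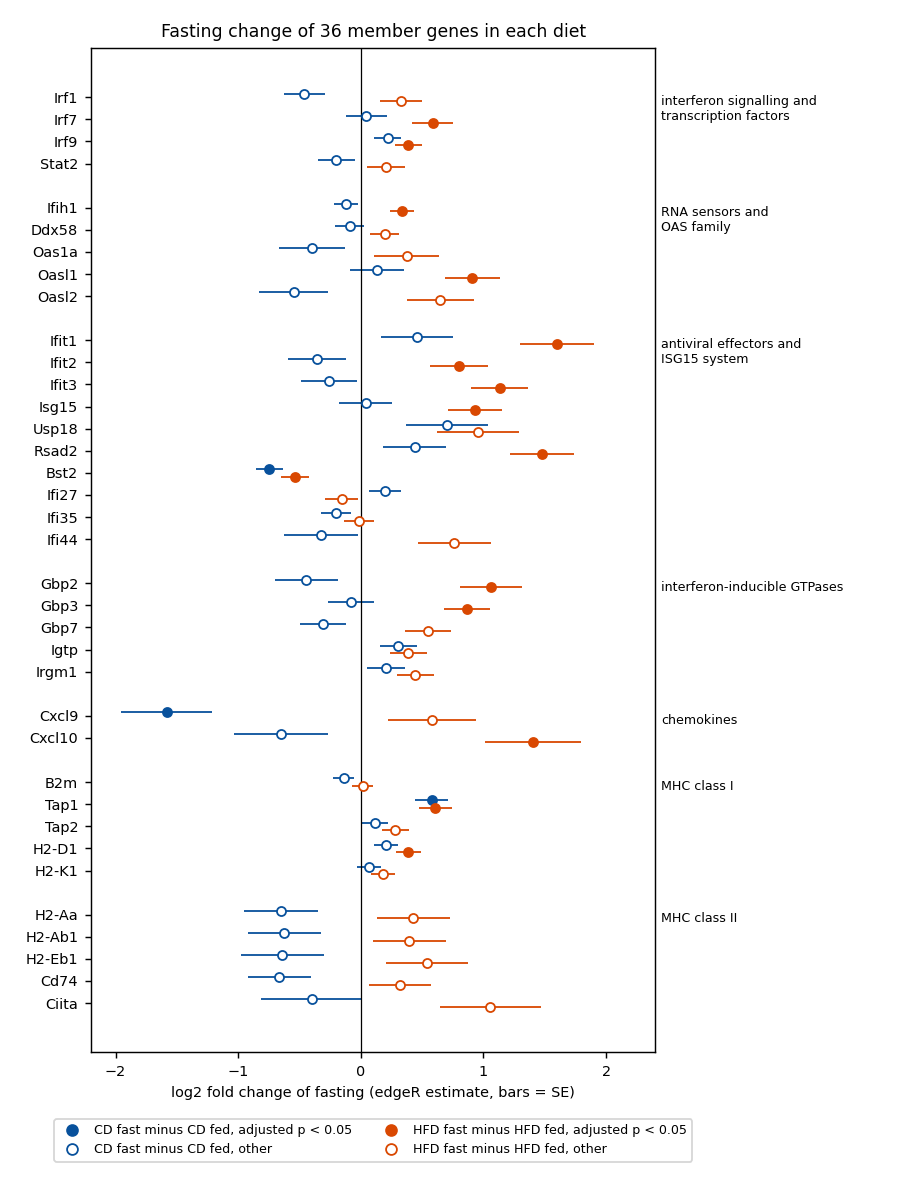
Log2 fold change on fasting (edgeR estimate, bars are SE, 4 libraries a group) of the 36 members in CD (blue) and HFD (orange) livers, ordered by class, with filled points for an adjusted p under 0.05. In HFD livers 14 filled points lie to the right of 0 and Bst2 to the left, whereas in CD livers only Tap1, Bst2 and Cxcl9 are filled.

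Of the 4 signalling genes, Irf7 and Irf9 rose on fasting in HFD livers. Irf7, the factor that amplifies type I interferon production, had 19.99, 26.6, 17.6 and 26.8 CPM in HFD fed libraries 1 to 4 and 30.8, 35.3, 36.6 and 34.1 CPM in HFD fast libraries 1 to 4. The groups did not overlap, and the log2 fold change was 0.59 ± 0.17 (± SE, adjusted p = 0.0416). In CD livers Irf7 spanned 25.9 to 37.7 CPM fed and 23.1 to 39.7 CPM fasted, with a log2 fold change of 0.0439 ± 0.17 (adjusted p = 0.876). Irf9, the DNA-binding partner of STAT2, rose from 35 ± 2.26 to 45.7 ± 1.67 CPM (mean ± SD, n = 4 each, adjusted p = 0.0416). Irf1 and Stat2 did not pass by edgeR on fasting in either diet (Irf1 -0.46 in CD and 0.33 in HFD, Stat2 -0.20 and 0.20, log2). On fasting in CD, DESeq2 called 1 of the 4 signalling genes (4265 of all 15075 genes), where edgeR called 0. The calls of Irf7 and Irf9 were near the threshold and were lost in 9 and 11 of the 16 omissions of a single library, with adjusted p up to 0.125 and 0.114 without HFD fed 1.

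Among RNA sensors and 2′-5′ oligoadenylate synthetase relatives, Oasl1 and Ifih1 rose in HFD livers. Oasl1, an OAS-like protein without synthetase activity, had 4.45, 8.08, 5.38 and 8.26 CPM in HFD fed and 9.48, 16.1, 11.3 and 12.2 CPM in HFD fast libraries (log2 fold change 0.91 ± 0.22, adjusted p = 0.0216, up to 0.0725 without HFD fed 1). Every fasted library was above every fed one. In CD livers it was at 7.13, 11.6, 13.2 and 12.9 CPM fed and was at 14.3, 10.8, 11.8 and 12.2 CPM fasted, and HFD fed had the lowest group mean. Ifih1 encodes MDA5, a sensor of long double-stranded RNA, and its rise was small (0.34, adjusted p = 0.044) and was lost in 11 of the 16 omissions, with an adjusted p of up to 0.137 without HFD fed 1. Ddx58 (RIG-I), Oas1a and Oasl2 had estimates of 0.19, 0.37 and 0.65 that did not pass.

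The antiviral effectors held the largest estimates of the members on fasting in HFD livers, for Ifit1 and Rsad2. Ifit1, which binds viral RNA lacking a host cap structure, had 2.96, 5.63, 3.68 and 5.24 CPM in HFD fed and 8.81, 18, 11.6 and 14.6 CPM in HFD fast libraries, a rise of 3.03-fold (log2 1.60 ± 0.30, adjusted p = 0.00596). All fasted libraries exceeded all fed ones. Its CD values were 4.08, 6.05, 7.82 and 7.27 CPM fed and 12.6, 4.66, 8.82 and 8.6 CPM fasted, which overlap (log2 0.46 ± 0.29, adjusted p = 0.271). Rsad2 (viperin, an enzyme that makes a chain-terminating nucleotide) had 4.45, 5.41, 4.51 and 7.13 CPM in HFD fed and 9.28, 13.9, 13.5 and 23.3 CPM in HFD fast libraries (log2 1.48 ± 0.26, adjusted p = 0.00412). The CD group means of Rsad2 lay between those of the HFD groups, with values of 8.17, 7.31, 10.8 and 8.2 CPM fed and 16.2, 7.98, 12 and 10.6 CPM fasted (log2 0.44 ± 0.26, adjusted p = 0.227).

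Ifit3, a partner of Ifit1 in RNA binding, had 5.44, 7.29, 5.44 and 8.75 CPM in HFD fed and 9.7, 18.2, 13 and 18.2 CPM in HFD fast libraries (log2 1.13 ± 0.23, adjusted p = 0.00896). In CD libraries it had 6.94, 10.2, 11.4 and 9.79 CPM fed and 8.58, 5.4, 9.67 and 8.36 CPM fasted, an estimate below 0 (-0.26 ± 0.23, adjusted p = 0.436). Fed and fasted libraries overlapped in CD and not in HFD. Isg15, a ubiquitin-like protein that is attached to other proteins, rose from 4.93 ± 1.57 to 9.41 ± 1.44 CPM in HFD livers (adjusted p = 0.0176, 0.0631 without HFD fed 1), and was 7.06 ± 1.52 and 7.24 ± 1.32 CPM in CD livers. Ifit2 rose in HFD livers (0.80, adjusted p = 0.0475), but its groups overlapped, the call was lost in 12 of the 16 omissions, and without HFD fast 4 the log2 fold change was 0.50 (adjusted p = 0.14). Usp18, the protease that removes ISG15, did not pass by edgeR in either diet (0.70 in CD and 0.95 in HFD, adjusted p = 0.139 and 0.088). On fasting in HFD, DESeq2 called 7 of the 10 antiviral effectors (1985 of all 15075 genes), where edgeR called 6. Ifi44 did not pass on fasting (-0.33 and 0.76), and Ifi35 and the abundant Ifi27 had estimates between -0.20 and 0.20.

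**Figure D2:**
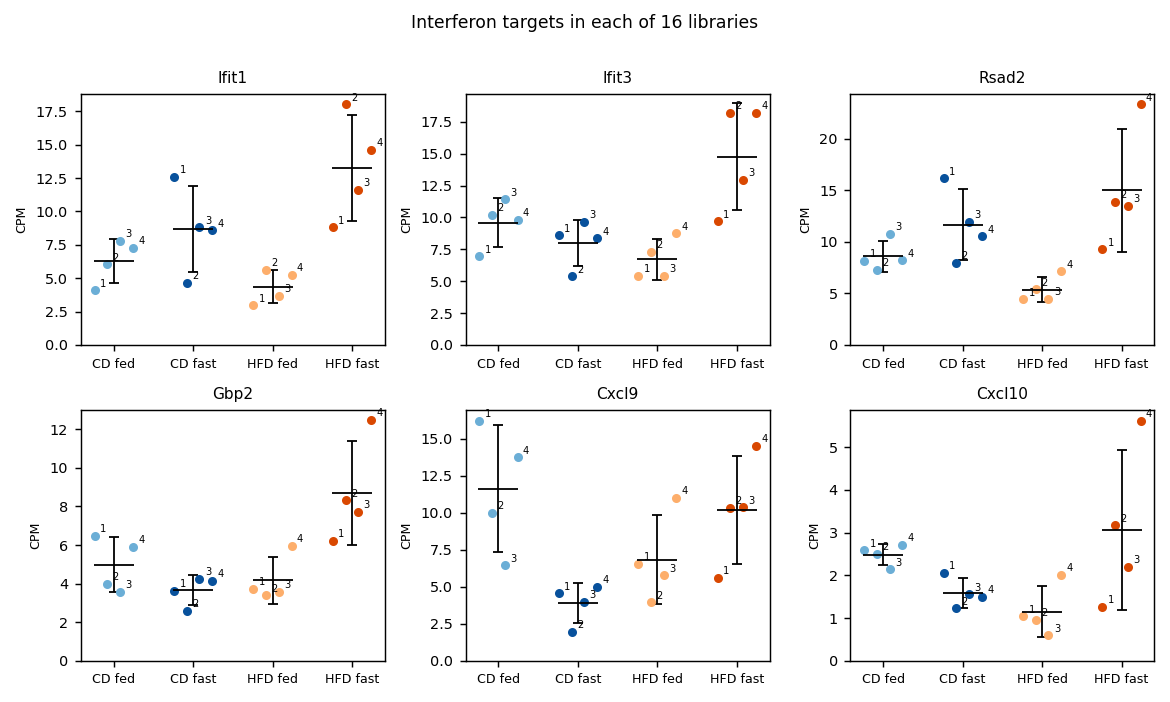
CPM of Ifit1, Ifit3, Rsad2, Gbp2, Cxcl9 and Cxcl10 in each library (points, labelled with the library number), with the mean and SD of the 4 libraries of each group as black bars. HFD fast has the highest mean in 5 of the 6 panels, and Cxcl9 has its highest mean, 11.6 CPM, in CD fed.

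Bst2 went the other way. Bst2 (tetherin) holds budding virions at the cell surface and was the most abundant interferon target per length. It fell on fasting in CD livers from 119, 131, 135 and 146 CPM to 90.2, 60.1, 85.8 and 81.3 CPM (log2 -0.75 ± 0.11, adjusted p = 0.000281) and in HFD livers from 106, 121, 117 and 128 CPM to 79.9, 80.1, 74.6 and 91 CPM (log2 -0.54 ± 0.11, adjusted p = 0.00975). Fed and fasted libraries did not overlap in either diet, and both calls held in each omission of a library (adjusted p up to 0.00128 in CD and 0.035 in HFD). The difference between the diets was 0.21 ± 0.16 (adjusted p = 0.484).

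Among the interferon-inducible GTPases, which act on membranes that enclose microbes, Gbp2 and Gbp3 rose on fasting in HFD livers. Gbp2 had 3.73, 3.39, 3.57 and 5.97 CPM in HFD fed and 6.23, 8.32, 7.74 and 12.5 CPM in HFD fast libraries (log2 1.06 ± 0.25, adjusted p = 0.0195). In CD livers it had 6.49, 3.99, 3.58 and 5.9 CPM fed and 3.63, 2.58, 4.25 and 4.16 CPM fasted (-0.44 ± 0.26, adjusted p = 0.218). The HFD fast libraries were all above those of HFD fed and of CD fast. Gbp3 rose from 5.13 ± 1.39 to 9.36 ± 1.82 CPM (log2 0.86 ± 0.19, adjusted p = 0.0116) and did not pass in CD livers (-0.0814). Gbp7, Igtp and Irgm1 had HFD estimates of 0.55, 0.39 and 0.45 and adjusted p of 0.0781, 0.12 and 0.078. Without HFD fast 4 the call of Gbp2 was lost (adjusted p = 0.0531), as it was without HFD fed 1 (0.0662), 2 (0.0554) or 3 (0.0558), while that of Gbp3 held in each omission (up to 0.0449).

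The chemokines Cxcl9 and Cxcl10 attract activated T cells through the receptor CXCR3. Cxcl9 fell on fasting in CD livers, from 16.2, 10.02, 6.45 and 13.8 CPM to 4.55, 1.94, 3.98 and 5.01 CPM (log2 -1.58 ± 0.37, 0.33-fold, adjusted p = 0.00628). In HFD livers it had 6.57, 3.96, 5.76 and 11 CPM fed and 5.6, 10.3, 10.4 and 14.5 CPM fasted, which overlap (0.58 ± 0.36, adjusted p = 0.334). Cxcl10 rose on fasting in HFD livers, from 1.04, 0.963, 0.595 and 2.02 CPM to 1.26, 3.17, 2.2 and 5.61 CPM (log2 1.40 ± 0.39, adjusted p = 0.0374). Its HFD groups overlapped, its counts were low (26 to 278 a library), and the log2 fold change was 0.93 without HFD fast 4 (adjusted p = 0.117) and the adjusted p was 0.103 without HFD fed 1, 0.0923 without HFD fed 2, 0.099 without HFD fed 3 and 0.0617 without HFD fast 2. In CD livers Cxcl10 did not pass (-0.65, adjusted p = 0.233), although no fasted value reached the fed range. On fasting in CD livers 25.2% of all genes passed, and 1731 of 15075 fell. Beside the fall of Cxcl9 in CD livers, 5 of the 12 Kupffer cell and macrophage markers fell (Adgre1, Csf1r, C1qb, C1qa and Clec4f). So did 3 of 6 sinusoidal endothelial markers (Oit3, Stab2 and Pecam1) and 2 of 5 stellate cell markers (Hgf and Reln). Of 7 T and NK cell markers tested, 1 fell (Cd4, -1.19, adjusted p = 0.00395). Also lower were 1 of 6 hepatocyte markers (Ttr), 1 of 5 erythrocyte markers (Alas2) and the 1 pancreas marker tested (Cela2a). Among markers that did not pass, Apoa1, Fabp1, Cps1 and Hnf4a of hepatocytes were above 0 and Alb below (-0.35). Hba-a2 and Hbb-bs of erythrocytes were above 0 (0.29 and 0.20) and Hba-a1 and Hbb-bt below. The part of these markers in the fall of Cxcl9 was not tested.

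Diet was compared within each feeding state. In fed mice 2 of 36 members passed (7.50% of all genes), both lower in HFD, as was Cd4 among the cell type markers (-0.93, adjusted p = 0.038). Oasl1 was -0.78 (SE 0.22, adjusted p = 0.0454) and H2-K1 -0.36 (SE 0.10, adjusted p = 0.0362) on the log2 scale. The next smallest p was that of Irf7 (-0.54 ± 0.17, adjusted p = 0.0631). Of the 26 interferon targets 22 had estimates below 0, with a median of -0.20 against 0.0066 over all genes, and 8 rather than 4 were above 0 when libraries were scaled by total counts. Both calls missed the threshold when libraries were scaled by total counts (0.0665 and 0.0505) or only these groups were fitted (0.0899 and 0.0544), and the count was 0 without CD fed 2, 3 or 4 or without HFD fed 1 or 3, and 1 without HFD fed 2, CD fast 4 or HFD fast 3. It was 2 without HFD fed 4 and 4 without both HFD libraries numbered 4. Calls over all genes were 1131 with all libraries, 873 without HFD fed 4 and 1099 without both. They were 514 (without CD fed 2) to 897 (without CD fed 4) where the count was 0. Without HFD fed 2, CD fast 4 or HFD fast 3 they were 878, 1067 and 1011.

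In fasted mice 8 of 36 members passed (7.70% of all genes), and all 8 were higher in HFD, where 3.05% of all genes were higher and 4.65% lower. They were Gbp2 (log2 1.25 ± 0.26, adjusted p = 0.0109), Ifih1 (0.40 ± 0.0982, 0.0247), Oasl2 (1.09 ± 0.28, 0.0273), Ifit3 (0.88 ± 0.23, 0.03003), Gbp3 (0.71 ± 0.19, 0.03003), Cxcl9 (1.39 ± 0.37, 0.0324), Ifit2 (0.90 ± 0.24, 0.0325) and Ifi44 (1.04 ± 0.30, 0.0451). Markers of other cells were also higher in HFD here, namely 2 of 6 of sinusoidal endothelium (Stab2 0.43 and Pecam1 0.44), 1 of 5 of stellate cells (Reln 0.75) and 1 of 5 of erythrocytes (Alas2 0.39), and their part in the result was not tested. HFD fast and CD fast libraries did not overlap in 11 of the 36 members, where 14.0% of all genes did not overlap. These 11 included all 8, which were picked by this same comparison. Oasl2, another OAS-like protein, had 3.35, 3.63, 4.29 and 4.44 CPM in CD fast and 6.12, 7.23, 8.32 and 11.8 CPM in HFD fast libraries. Ifi44, a cytoplasmic interferon target, had 1.93, 1.18, 2.5 and 2.39 CPM in CD fast and 2.56, 3.97, 3.33 and 6.71 CPM in HFD fast libraries, with HFD fast 4 the highest in both genes. A fit of only the 2 groups compared called 0 of the 36, with similar fold changes and adjusted p from 0.0509 (Gbp2 and Oasl2) to 0.111 (Ifi44), and 90 of 14446 genes in place of 1161 of 15075. The count was 1 (Gbp2) without HFD fast 4, 1 without CD fast 2, 2 without HFD fast 3, 3 without HFD fast 2, 3 without CD fast 1, 5 without CD fast 3 and 3 without both HFD libraries numbered 4. Calls over all genes in these omissions were 535, 705, 553, 1142, 721, 936 and 645 in the same order, against 1161 with all libraries. Scaling by total counts, which placed the median of all genes at 0.17, called 11 members here, and 1851 genes were then higher and 250 lower in place of 460 and 701. The median of the interferon targets stood 0.37 above that of all genes under either scaling. On fasting in HFD livers the same scaling gave 894 genes higher and 429 lower in place of 721 and 614.

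Whether fasting acted differently in the 2 diets was tested by the interaction term, which is above 0 where the log2 fold change on fasting was higher in HFD livers. It passed for 3 of 36 members, against 2.59% of all genes, and among the cell type markers for Alas2 (0.71). Ifit3 differed by 1.39 ± 0.33 (adjusted p = 0.0361), Gbp2 by 1.51 ± 0.36 (adjusted p = 0.0395) and Cxcl9 by 2.16 ± 0.52 (adjusted p = 0.0395) on the log2 scale, each with fasting estimates of opposite sign in the diets. Cxcl10 and Gbp3 were next (2.05 and 0.95, adjusted p = 0.0566 and 0.0657). The interaction estimate was above 0 in 25 of the 26 interferon targets, all except Ifi27, with a median of 0.78 against -0.0015 over all genes. The 3 calls were close to the threshold. The count was 0 without CD fed 2 or 4, CD fast 2 or 4, HFD fed 1, 2 or 3, or HFD fast 2, 3 or 4, was 1 without CD fed 1, and rose to 7 without HFD fed 4, to 6 without HFD fast 1 and to 6 without both HFD libraries numbered 4. Over all genes, 390 were called with all libraries and 147 (without CD fed 2) to 353 (without HFD fast 2) where the count was 0. The all-gene calls were 246 without CD fed 1, 438 without HFD fed 4, 461 without HFD fast 1 and 226 without both. The highest adjusted p of the 3 genes in these omissions were 0.0767, 0.081 and 0.0809.

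Of the 5 MHC class I genes, 1 passed by edgeR on fasting in CD (25.2% of all genes) and 2 on fasting in HFD (8.86%). For HFD in fed mice 1 passed (7.50%), and 0 passed for HFD in fasted mice (7.70%) and 0 for the interaction (2.59%). Tap1, a subunit of the transporter that feeds peptides to class I molecules, rose on fasting in both diets. It went from 18, 22, 23.6 and 29.7 to 37.9, 39.5, 28.3 and 33.4 CPM in CD livers (log2 0.58 ± 0.13, adjusted p = 0.00577) and from 21.1, 25.9, 20.9 and 24.3 to 32.9, 34.5, 37.4 and 35.6 CPM in HFD livers (log2 0.61 ± 0.13, adjusted p = 0.0133). The groups overlapped in CD and not in HFD, where the call was lost without HFD fed 1 (adjusted p = 0.052). The interaction of Tap1 was 0.029 ± 0.19 (adjusted p = 0.95). Tap2, its partner, did not pass (0.12 in CD and 0.28 in HFD, adjusted p = 0.458 and 0.114).

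The heavy chain H2-D1 rose on fasting in HFD livers, from 419, 464, 431 and 504 to 664, 581, 564 and 572 CPM (log2 0.39 ± 0.0984, adjusted p = 0.0246), and in CD livers it had 455, 586, 485 and 559 CPM fed and 554, 651, 608 and 589 CPM fasted (0.20 ± 0.0983, adjusted p = 0.142). The HFD groups did not overlap and the CD groups did. Without HFD fed 1, 2 or 3 or HFD fast 1 the adjusted p of H2-D1 was 0.0855, 0.0515, 0.0709 and 0.0767. H2-K1 had 924, 914, 911 and 946 CPM in HFD fed libraries, all below its CD fed values of 999, 1319.9, 1188 and 1247 CPM. HFD fast libraries had 1124, 1146, 1023 and 894 CPM, also all below those of CD fast (1214, 1286, 1268 and 1209 CPM), but this difference did not pass (-0.25 ± 0.0986, adjusted p = 0.125). B2m stayed within 991 to 1239.7 CPM in the 16 libraries and passed in no comparison. H2-D1 and H2-K1 are near-identical in places, so reads may be shared between them and with other class I genes.

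**Figure D3:**
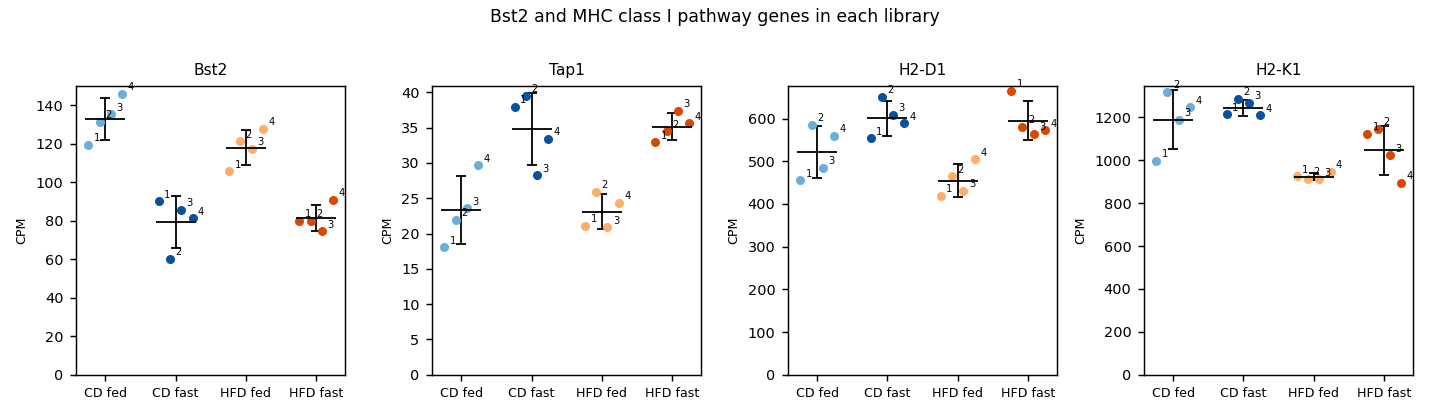
CPM of Bst2, Tap1, H2-D1 and H2-K1 in each library (numbered points), with group means and SD (n = 4). Bst2 is lower and Tap1 higher in the fasted groups of both diets, and the 4 HFD fed libraries of H2-K1 lie between 911 and 946 CPM.

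Class II genes did not pass in any comparison by edgeR with all 16 libraries. All 5 estimates were below 0 on fasting in CD livers and above 0 in HFD livers, with medians of -0.64 and 0.43. Of the 5, 2 had an unadjusted p under 0.05 on fasting in CD, 1 on fasting in HFD, 0 for HFD in fed mice, 2 for HFD in fasted mice and 5 for the interaction. Of all 15075 genes, 5674, 3864, 3449, 3905 and 3045 did, in the same order. DESeq2 called 1 of the 5 on fasting in CD (4265 of all genes) and 0 in the other comparisons, and limma-voom called 0 in each. H2-Aa, a chain of the I-A molecule, had 34.6, 35, 20.1 and 43 CPM in the CD fed libraries, 16.8, 21.6, 24.2 and 21.8 in CD fast, 20.5, 17.2, 25.8 and 39.3 in HFD fed and 26.8, 25.6, 26.6 and 59.4 CPM in HFD fast libraries. In HFD fast the first 3 libraries lay close together and library 4 was far above them. Cd74, the invariant chain that occupies new class II molecules, had 81.7, 86.2, 48.8 and 114 CPM in the CD fed libraries, 39.9, 60.2, 54.9 and 53.9 in CD fast, 50.4, 46.5, 59.1 and 85.5 in HFD fed and 65.8, 58.1, 66.7 and 111 CPM in HFD fast libraries (fasting in CD -0.66 ± 0.26, adjusted p = 0.0691).

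H2-Ab1 and H2-Eb1, the other chains, were likewise highest in HFD fast 4 (43.7 and 45.1 CPM), and so was Ciita (4.42 CPM, against 1.5, 1.88 and 2.16 in the other HFD fast libraries). Without HFD fast 4 the median fasting change of class II genes in HFD livers was 0.0822, and without HFD fed 4 it was 0.71, with Ciita called (1.51 on the log2 scale). Without both libraries it was 0.40, and 3 of the 5 (H2-Aa, H2-Ab1 and Cd74) were called lower on fasting in CD livers. On fasting in CD, 1 of the 5 was called without HFD fast 4 alone and 1 without HFD fed 4 alone. Of all genes, 4128 of 15113 were called there without both, 3958 of 15245 without HFD fast 4 and 3875 of 15212 without HFD fed 4. The median interaction was 1.08 with all libraries, 0.74 without HFD fast 4, 1.36 without HFD fed 4 and 1.02 without both.

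Of the markers of cells that can carry class II, Itgax and the dendritic cell sum were highest in HFD fast 4, whereas its B cell sum (6.71 CPM) and its Kupffer cell and macrophage sum (563 CPM) lay within the range of the other libraries. Itgax was 1.53, 0.872, 0.479 and 0.607 CPM in the CD fed libraries, 0.542, 0.691, 0.709 and 0.849 in CD fast, 0.614, 0.35, 0.457 and 4.41 in HFD fed and 1.11, 1.9, 2.18 and 8.75 CPM in HFD fast libraries. The sum of 7 dendritic cell markers spanned 9.35 to 14.9 CPM in the CD fed libraries, 11.4 to 12.8 in CD fast, 10.7 to 18 in HFD fed and 13 to 24 in HFD fast, and 6 of the 7 exceeded 3 counts in every library. Sums over 6 B cell markers were 2.26 to 9.84 CPM in the 16 libraries and over 10 T and NK cell markers 2.71 to 6.3 CPM, the latter highest in HFD fast 4. No dendritic or B cell marker passed in any comparison. On fasting in CD livers, where all 5 class II estimates were below 0, 5 of the 12 Kupffer cell and macrophage markers fell. So did 3 of 6 sinusoidal endothelial and 2 of 5 stellate cell markers, and 1731 of all 15075 genes. Ifng, which encodes interferon gamma, did not exceed 3 counts in any library, and neither did the neutrophil genes Ly6g and Mpo. The sum of 5 neutrophil markers was highest in HFD fast 4 (2.4 CPM), as were S100a8 (0.99 CPM) and Retnlg (0.283 CPM). S100a9 was highest in HFD fast 3 (1.3 CPM). The part of these cells in the class II values was not tested.

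**Figure D4:**
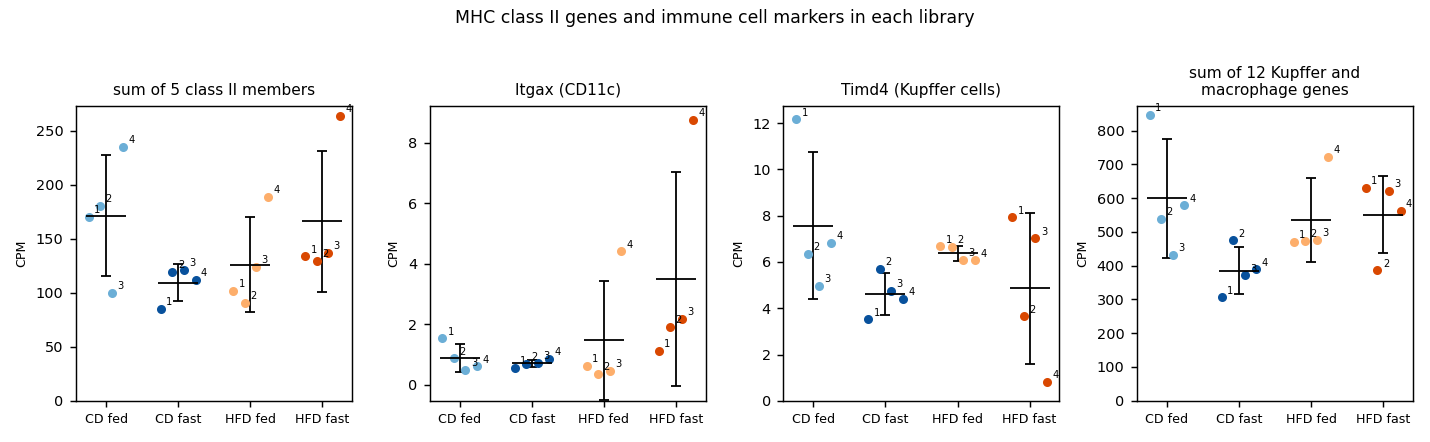
CPM in each library (numbered points, group mean and SD, n = 4) of the summed 5 class II members, Itgax, Timd4 and the summed 12 Kupffer cell and macrophage markers. HFD fast 4 is highest for class II and Itgax, at 264 and 8.75 CPM, and lowest for Timd4, at 0.808 CPM. Its sum of the 12 markers, 563 CPM, lies within the range of the other libraries.

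The classes were also followed library by library, as the mean over members of the log2 CPM minus each member's mean in the 16 libraries. For the interferon targets this level was 0.0079, 0.46, 0.29 and 0.68 in HFD fast 1 to 4, and -0.45, -0.18, -0.52 and 0.10 in HFD fed 1 to 4. HFD fed 4 lay above HFD fast 1, so the groups overlapped by this measure. CD fed spanned -0.14 to 0.18 and CD fast -0.45 to 0.0204, with CD fast 2 the lowest of its group. HFD fast libraries held the highest value of 19 of the 26 interferon targets (13 in HFD fast 4 and 6 in HFD fast 2), and CD fast 2 held the lowest of 10. Class I levels were narrower, from -0.26 to 0.23, and were above 0 in all 8 fasted libraries and below 0 in 6 of 8 fed ones. Class II levels ran from -0.76 to 1.12. HFD fast 4 was highest for interferon targets and for class II but was the lowest of its group for class I (0.0410).

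**Figure D5:**
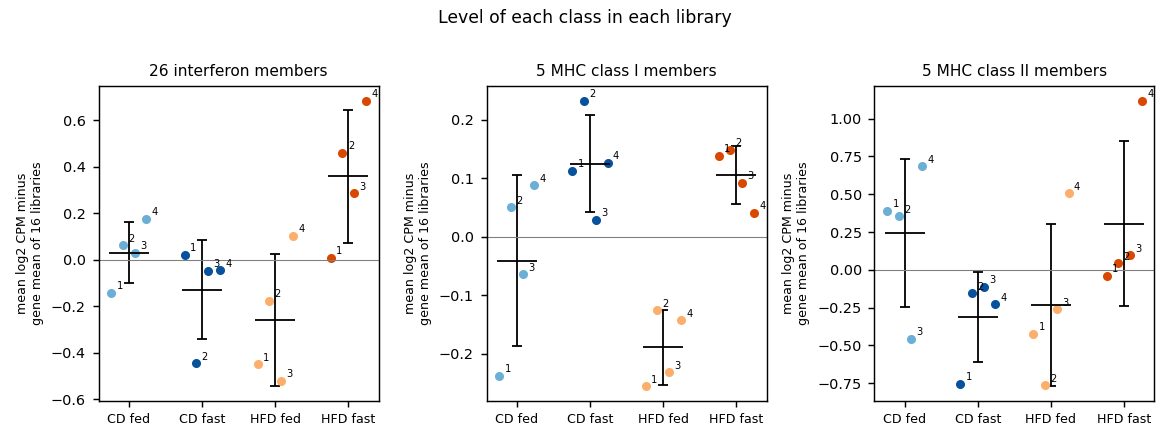
Level of 26 interferon targets, 5 class I and 5 class II members in each library (numbered points), as mean log2 CPM relative to each gene's mean over 16 libraries, with group mean and SD (n = 4). HFD fast 4 is the highest point for interferon targets (0.68) and class II (1.12).

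Other genes of these routes, taken from 4 lists, were tested in the same fit. Of 36 further interferon-stimulated genes, 12 rose and 0 fell on fasting in HFD livers (33.3%, against 8.86% of all genes), among them Zbp1, a sensor of Z-form nucleic acid (1.41, adjusted p = 0.00162), Lgals3bp (0.71, 0.00265) and the nucleotide kinase Cmpk2 (1.16, 0.00651). In CD livers 7 passed (19.4%, against 25.2% of all genes), of which 4 rose, led by Dtx3l (0.45), Parp9 (0.44) and Zbp1 (0.66), and 3 fell, Samhd1 (-0.27), Trim30a (-0.43) and Gbp4 (-0.53). In fasted mice 9 passed (25.0%, against 7.70%), of which 8 were higher in HFD, led by Trim30a (0.86, adjusted p = 0.00374), Samhd1, which degrades deoxynucleotides (0.47, 0.00375), and Herc6 (0.63, 0.0067), and 1 was lower, Trim25 (-0.39). In fed mice 1 was lower, Cmpk2 (-0.83, 2.78% of the list against 7.50%). The interaction passed for 4 (11.1%, against 2.59%), Samhd1 (0.53), Trim30a (0.86), Gbp4 (1.07) and Cmpk2 (1.23), with adjusted p from 0.0177 to 0.0478. DESeq2 called 15 of the 36 for HFD in fasted mice, 11 for the interaction and 3 for HFD in fed mice, and limma-voom 6, 3 and 1. Of all 15075 genes, DESeq2 called 1967, 1079 and 1768 in the same order, and limma-voom 1021, 357 and 1098. The list's median log2 fold changes were -0.0774 for fasting in CD and 0.43 for fasting in HFD.

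Of 17 genes for receptors and signalling, 4 rose and 1 fell on fasting in CD livers (29.4%, near the 25.2% of all genes): the receptor chains Ifngr2 (0.63), Ifnar2 (0.25) and Ifnar1 (0.25) led the rises, and Irf2, a repressor of interferon targets, fell (-0.77, adjusted p = 0.000562).

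Of 16 genes of class I processing, 4 rose on fasting in HFD livers (25.0%, against 8.86% of all genes), led by H2-T23 (0.40), H2-T22 (0.30) and the immunoproteasome subunit Psmb8 (0.40). In CD livers 4 passed (25.0%, as for 25.2% of all genes): Nlrc5, the activator of class I transcription, rose (0.79, adjusted p = 0.00137), and Erap1 (-0.38), Psmb10 (-0.39) and Calr (-0.50) fell. Calr (-0.74) and Pdia3 (-0.65), both chaperones of peptide loading, were lower in HFD in fed mice (12.5%, against 7.50%). By edgeR 0 of 16 passed between the diets in fasted mice and 0 in the interaction (2 and 4 at an unadjusted p under 0.05, 0 and 1 by DESeq2, 0 by limma-voom). Of all 15075 genes, 3905 and 3045 had an unadjusted p under 0.05 there, and DESeq2 called 1967 and 1079. Of 14 genes of class II processing, Rfx5, which binds class II promoters (0.38), and the cathepsin Ctsl (0.48) rose on fasting in CD (14.3%, against 25.2% of all genes). In fasted mice 1 passed by edgeR (7.14%, against 7.70% of all genes), Ctsl, which was lower in HFD (-0.56). Of the 14 estimates, 9 were above 0, with a median of 0.48. An unadjusted p under 0.05 was reached by 11 of the 14 and by 3905 of all 15075 genes. DESeq2 called 7 (1967 of all genes) and limma-voom 1 (1021 of all genes). In the remaining 3 comparisons 0 of 14 passed by edgeR (2 on fasting in HFD, 1 for diet in fed mice and 4 in the interaction at an unadjusted p under 0.05, with 0, 0 and 1 by DESeq2 and 0 by limma-voom). In these 3, 3864, 3449 and 3045 of all genes had an unadjusted p under 0.05, and DESeq2 called 1985, 1768 and 1079.

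Some counts may include reads of neighbours or copies. In the GENCODE annotation of GRCm38, Irf9 (chr14:55603571-55610030, plus strand) overlaps Rnf31 and Igtp (chr11:58199556-58207591, plus) overlaps Irgm2 on the same strand. Irf7 (chr7:141262706-141266481, minus) overlaps Phrf1, Cxcl10 (chr5:92346638-92348889, minus) overlaps Art3, Tap1 (chr17:34187553-34197225, plus) overlaps Psmb9 and B2m (chr2:122147686-122153083, plus) overlaps Patl2 on opposite strands. The strand setting of the counting is not given in the sources used here. Ifit3 has a close copy, Ifit3b, which also rose on fasting in HFD livers (1.13, adjusted p = 0.02001), and Oas1a, Gbp2, Gbp3 and Gbp7 belong to families of similar genes on mouse chromosomes 5 and 3.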

How the data were processed

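Liver RNA of 16 samples was sequenced, and the authors deposited raw counts of reads per Ensembl gene. The submitters' processing notes name CASAVA 1.8.4, TopHat2 2.0.11, featureCounts and GRCm38/mm10. Strand and read pair settings of the counting are not given in the sources used here. Genes were filtered with filterByExpr (15075 kept), scaled by TMM and tested in edgeR 4.0.16 (R 4.3.3) by the quasi-likelihood test over all 16 libraries, with 1 coefficient per group, 12 residual degrees of freedom and a common biological coefficient of variation of 19.2%. P-values were adjusted over all genes by Benjamini-Hochberg, with a threshold of 0.05, two-sided. Log2 CPM used a prior count of 2. Full statistics were given for members past the threshold, or the 5 of each sign with the smallest p where more than 10 passed, or the first 3 by p where fewer than 3 did, and up to 3 other pathway genes of each sign were named. Further per-library values were chosen after they were seen. The members and lists were chosen with earlier results of these data known. DESeq2 1.42.0, limma-voom (limma 3.58.1), other scalings and filters, a replicate block and the omission of each library were tried, and the omission of both HFD libraries numbered 4 was chosen after seeing the data. Nothing states that samples of a group came from separate cages or days, so p-values measure the spread between these samples. Promoter sequences are from RefSeq (GRCm38.p6), and the first 8 changed members, in list order, with an ISRE core upstream of the start are printed. The scripts were tested on simulated data. Of the receptor and signalling list, only fasting in CD is described, and calls in other comparisons are not reported here.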

Additional observations from a re-analysis of the deposited data

Results flagged for a closer look

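In 144 groups of 4 libraries (36 members in 4 groups), 11 held a library whose gap to the nearest other exceeded Dixon's critical share of the group's range (7.64%), where chance flags about 1 in 20. Of the class II genes, 4 stood out high in HFD fast 4: H2-Aa at 59.4 CPM, H2-Ab1 at 43.7 CPM, H2-Eb1 at 45.1 CPM and Cd74 at 111 CPM. The same library was far above the others of its group for Oas1a (6.93 CPM). Ciita was low in CD fast 1, at 0.660 CPM, and Gbp2 was high in HFD fed 4, at 5.97 CPM. Irf1 was high in CD fast 3 (33.3 CPM) and low in HFD fed 3 (18.5 CPM). B2m was low in CD fed 1, at 1070.3 CPM, and H2-D1 was high in HFD fast 1, at 664 CPM.

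The fasting change differed between the diets by the interaction test for Ifit3 (1.39 on the log2 scale), Gbp2 (1.51) and Cxcl9 (2.16), each with the higher signed log2 fold change in HFD. For Cxcl9 the change that passed was the fall in CD livers.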

How the results depend on the processing

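None of the called members changed sign under an alternative, but the balance over all genes for HFD in fasted mice turned from 460 higher and 701 lower to 1851 and 250 with scaling by total counts. Of the alternatives to single members' values, 604 stayed on the same side of the threshold, 190 missed it and 3 passed it; of the class medians 314 moved by less than the spread between libraries and 1 by more. On fasting in CD, where 3 members passed, DESeq2 gave 5, a fit of only the groups compared gave 6 and omission of both HFD libraries numbered 4 gave 7. Over all genes, 3797 passed in the main fit and 4265, 3119 and 4128 in these settings, in the same order. On fasting in HFD (15), a threshold of 0.01 gave 4. For HFD in fed mice (2), a threshold of 0.01, scaling by total counts and a fit of only the groups compared each gave 0, limma-voom and no filter gave 1, DESeq2 gave 5 and omission of both libraries gave 4. Over all genes the main fit gave 1131, scaling by total counts 1331 and the fit of only these groups 1121. There limma-voom gave 1098, no filter 944, DESeq2 1768 and omission of both libraries 1099. For HFD in fasted mice (8), a threshold of 0.01 and a fit of only the groups compared gave 0, and omission of both libraries gave 3. Over all genes the main fit gave 1161, the fit of only these groups 90 and omission of both libraries 645. For the interaction (3), a threshold of 0.01 gave 0, limma-voom 1, DESeq2 10 and omission of both libraries 6. Over all genes the main fit gave 390, limma-voom 357, DESeq2 1079 and omission of both libraries 226. Leaving out each library in turn gave 3 to 5 members for fasting in CD, 5 to 19 for fasting in HFD, 0 to 3 for HFD in fed mice, 1 to 10 for HFD in fasted mice and 0 to 7 for the interaction. Calls over all genes then ran, in the same order, from 2857 to 3958, 505 to 1533, 514 to 1268, 535 to 1354 and 147 to 461. A replicate block gave 4, 17, 2, 10 and 7 in the same order, with 3948, 1440, 1207, 1290 and 359 over all genes. The samples, however, share only a number. Over 24 same-numbered pairs the correlation of deviations ran from -0.24 to 0.66, the latter between HFD fed 4 and HFD fast 4. Of the 24, 8 exceeded 0.1, and the median was 0.0581. The causes of these shifts were not tested. Counts of 26 to 278 for Cxcl10 and 27 to 219 for Ciita limit the precision of both.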
